A study of Mus musculus with 26 samples.

Results

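The Desert hedgehog pathway genes are the ligand gene Dhh and the genes Ptch1, Gli1, Gli2, Gli3, Hhip, Smo, Gas1 and Boc, which encode receptors, transducers and antagonists of the signal. They were chosen by name, and all 9 were found by Ensembl identifier among the 57186 genes of the count table that holds WT and every Fgf9 deletion. All 9 passed the filter on low counts there and in the Meis1 table, so no member was lost to it. RNA-seq of XY mouse gonads at E13.5 covered 26 samples: 3 WT, 3 Fgf9 Δ306, 6 Fgf9 Δ225, 4 Fgf9 Δ104, 6 Fgf9 Δ93 and 4 Meis1 KO. The gonads had been separated from the mesonephros and frozen, and poly(A) RNA was sequenced with a strand-specific kit. The labels do not give the boundaries of the deletions, whether they were homozygous, the litters, or how many gonads made a sample. They call the replicates biological for Δ225, Δ104, Δ93 and Meis1 KO, and only number them for WT and Δ306, so p-values measure the spread between these samples. All deletion and Meis1 KO groups were compared with the same 3 WT libraries. WT and Δ306 belong to an earlier deposit, and Δ225, Δ104, Δ93 and Meis1 KO to a later one that holds no WT. Genotype and deposit therefore cannot be told apart where those later groups are compared with WT or with Δ306.

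In the fetal testis, Sertoli cells secrete Desert hedgehog, and the cells of the interstitium receive it. The ligand binds Patched 1 (Ptch1), which otherwise holds Smoothened (Smo) inactive at the primary cilium. Active Smoothened lets the transcription factors Gli2 and Gli3 act on target genes. Gli1, Ptch1 and Hhip are themselves targets, so their RNA is the usual readout of the signal, and fetal Leydig cells need it to differentiate.

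RefSeq promoters (GRCm38.p6, 250 bases before to 50 bases after the start of transcription) were found for 7 of the 9 members. They are shown for the ligand and for 3 members whose RNA was lower in Δ306 and Δ93, because these move together across the libraries. Each is written 5′ to 3′ on the strand of the gene, and capitals mark the GC box GGGCGG or its reverse complement CCGCCC. The Dhh promoter is chr15:98898491-98898790, the Ptch1 promoter chr13:63565686-63565985, the Gli2 promoter chr1:119053570-119053869 and the Hhip promoter chr8:80057959-80058258, all on the minus strand.
Dhh: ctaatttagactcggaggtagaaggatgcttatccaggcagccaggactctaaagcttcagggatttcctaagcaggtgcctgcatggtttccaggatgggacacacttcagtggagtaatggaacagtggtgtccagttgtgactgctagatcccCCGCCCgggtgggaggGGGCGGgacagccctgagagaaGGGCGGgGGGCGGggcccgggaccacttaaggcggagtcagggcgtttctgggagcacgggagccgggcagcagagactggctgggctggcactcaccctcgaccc
Ptch1: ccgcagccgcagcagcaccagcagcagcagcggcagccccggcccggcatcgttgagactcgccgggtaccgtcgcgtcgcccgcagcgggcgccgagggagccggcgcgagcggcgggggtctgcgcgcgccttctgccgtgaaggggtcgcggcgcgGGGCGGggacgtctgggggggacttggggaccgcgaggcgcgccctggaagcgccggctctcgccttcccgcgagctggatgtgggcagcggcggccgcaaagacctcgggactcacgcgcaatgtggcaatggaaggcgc
Gli2: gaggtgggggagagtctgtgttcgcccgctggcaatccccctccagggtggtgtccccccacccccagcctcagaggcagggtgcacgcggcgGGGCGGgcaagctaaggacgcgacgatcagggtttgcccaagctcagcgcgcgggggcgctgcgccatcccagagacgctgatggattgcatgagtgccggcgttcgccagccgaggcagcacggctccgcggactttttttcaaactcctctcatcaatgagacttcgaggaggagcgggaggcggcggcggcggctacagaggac
Hhip: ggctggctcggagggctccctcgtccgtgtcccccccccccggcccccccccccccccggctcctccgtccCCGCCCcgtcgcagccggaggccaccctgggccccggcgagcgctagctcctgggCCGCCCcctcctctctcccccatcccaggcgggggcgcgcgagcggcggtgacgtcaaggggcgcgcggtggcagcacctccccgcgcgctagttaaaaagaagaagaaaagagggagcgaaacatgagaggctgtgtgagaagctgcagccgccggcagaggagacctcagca
GGGCGG was searched on both strands, with its reverse complement CCGCCC. Dhh held 4 GC boxes, at −94, −78, −56 and −49 from the start, Hhip 2, Ptch1 1 and Gli2 1. Among the members not printed, Gli3 held 2, Gas1 1 and Smo 0, and 35.7% of the 32851 promoters of the table held at least 1. The GLI-binding letters GACCACCCA (reverse complement TGGGTGGTC), searched on both strands, were in 0.253% of all promoters and in 0 of these 7, also with 1 mismatch, which 6.74% of all promoters matched. TATAAA (reverse complement TTTATA) was in 13.6% of all promoters and in 0 of the 7. In CpG dinucleotides the promoters ranged widely, against a median of 7 over all promoters. Ptch1 had 47, more than 98.6% of promoters, Gli3 39 (95.6%), Hhip 30 (88.3%) and Gli2 28 (85.8%). Smo and Gas1 had 17 each (68.6%) and Dhh 12 (60.4%), nearer the middle. The matches describe these windows only.

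Libraries had 11.6 to 53.4 M counts (median 36.7) in the table of all deletions and 35.5 to 51.7 M in the Meis1 table. Fgf9, the targeted growth factor gene, was at 9.53 ± 0.32 CPM (counts scaled to library size, SD, n = 3) in WT. It was at 2.48 ± 0.406 in Δ306 (n = 3) and 3.08 ± 0.863 in Δ93 (n = 6), both called lower by edgeR's quasi-likelihood test (adjusted p 0.0148 and 0.00532). It was at 4.85 ± 1.76 CPM in Δ104 (n = 4) and 7.01 ± 4.73 in Δ225 (n = 6), not called in either (adjusted p 0.259 and 0.535). Meis1 was at 78.4 ± 26.5 CPM in WT (n = 3) and 0.439 ± 0.209 in Meis1 KO (n = 4). The summed level of the Y-linked genes Ddx3y, Uty, Kdm5d and Eif2s3y was 31.2 to 77.2 CPM in WT and under 1 CPM in 4 libraries labelled XY: Δ306 replicate 3, Δ225 replicate 4, Δ93 replicate 4 and Δ93 replicate 5. The other libraries were also low: the highest sum was 6.6 CPM in Δ93, 11.7 in Δ306, 20.5 in Δ225 and 15.8 in Meis1 KO, all below WT, and Δ104 replicate 4, at 36.2 CPM, alone reached the range of WT. Leaving out the 4 libraries therefore does not remove the difference in Y-linked RNA between WT and the other groups. Xist, expressed from an inactive X chromosome, was highest in Δ93 replicate 4 (6.42 CPM), which had the lowest Y-linked sum (0.0265 CPM), and was at most 0.185 CPM in WT. The next highest values, 3.12 and 2.24 CPM, were in Δ225 replicates 2 and 1, whose Y-linked sums were 20.5 and 10.8 CPM. Xist was at 0.671 CPM in Δ306 replicate 3, 0.226 in Δ93 replicate 5 and 0.177 in Δ225 replicate 4, so low Y-linked RNA did not generally go with high Xist. Counts of members called are given with and without the 4 libraries under 1 CPM of Y-linked RNA where that changes them. In Δ225, replicates 1 to 3 had 11.6, 23.3 and 20.2 M counts and replicates 4 to 6 had 46.8, 43 and 41.3 M, so depth splits that group.

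The labelled tissue was checked against markers of gonadal cell types. Sertoli, interstitial and fetal Leydig markers were all present in WT: the 12 Sertoli markers summed to 2460 to 3270 CPM, the 8 interstitial progenitor markers to 1680 to 2030 CPM and the 9 fetal Leydig markers to 1000 to 1720 CPM. Mesonephric markers summed to 37.9 to 56.9 CPM in WT. Dhh is also made by Schwann cells of peripheral nerve. The 7 Schwann and glial markers summed to 84.4 to 105 CPM in WT, of which Sox10, which Sertoli cells can also express, made up 37.4 ± 3.31 CPM (n = 3). The same sum was 64.7 to 103 CPM in Δ225, 23.3 to 77.4 in Δ104, 23.7 to 58.6 in Δ306 and 23.3 to 72 in Δ93, so every Δ104, Δ306 and Δ93 library lay below WT. Its lowest values were in libraries with little Dhh: 23.3 CPM in Δ104 replicate 1, 23.7 in Δ306 replicate 3 and 23.3 in Δ93 replicate 2. Sox10 itself was at 6.02 ± 6.31 CPM in Δ93 (n = 6, adjusted p 0.0841) and was not called against WT in any deletion. Of the 7 markers, edgeR called 1 higher and 0 lower in Δ93 against WT, beside 14.1% of all genes. In the other deletions it called 0 of them. The part of these cells in the level of Dhh was not tested.

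Dhh (ENSMUSG00000023000, chromosome 15, 98891152 to 98898540, minus strand, GRCm38), the ligand gene, was highest in WT and lowest in Δ93 and Δ306. WT libraries had 62.8, 74.1 and 61 CPM (66 ± 7.11, SD, n = 3). The 6 Δ225 libraries ran from 32.8 to 58 CPM with a median of 42.2 (43.7 ± 9.65). All of them lay below every WT library, the 3 shallower ones at 32.8, 35.5 and 39.6 CPM and the 3 deeper ones at 51.2, 58 and 44.8 CPM. The Δ104 libraries had 0.417, 21.5, 46 and 67.2 CPM (33.8 ± 29.1, n = 4), so they spanned a 161-fold range that reached into WT. The Δ306 libraries had 16.1, 17.3 and 1.17 CPM (11.5 ± 8.99, n = 3). The Δ93 libraries ran from 0.442 to 27.4 CPM with a median of 6.22 (8.94 ± 10.7, n = 6). Neither Δ306 nor Δ93 overlapped WT, but each held libraries with almost no Dhh beside libraries with a moderate level.

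The test took this spread into account, and Dhh was called in none of the 11 comparisons. In edgeR's quasi-likelihood test its log2 fold change against WT was −2.89 in Δ93 (SE 1.01, adjusted p 0.0613) and −2.52 in Δ306 (SE 1.28, adjusted p 0.258). It was −0.97 in Δ104 (SE 1.12, adjusted p 0.679) and −0.59 in Δ225 (SE 1.02, adjusted p 0.785). With DESeq2 the Δ93 change was −2.88 with an adjusted p of 0.046, past the threshold of 0.05, and the authors' deposited table likewise lists Dhh with an adjusted p of 0.0452 for WT and Δ93. Without Δ93 replicate 6, the library with the most Dhh in that group, edgeR gave −3.65 (adjusted p 0.0247). In the order of group means, WT stood apart from Δ225, and each of the other neighbours (Δ225 and Δ104, Δ104 and Δ306, Δ306 and Δ93) overlapped.

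**Figure D1:**
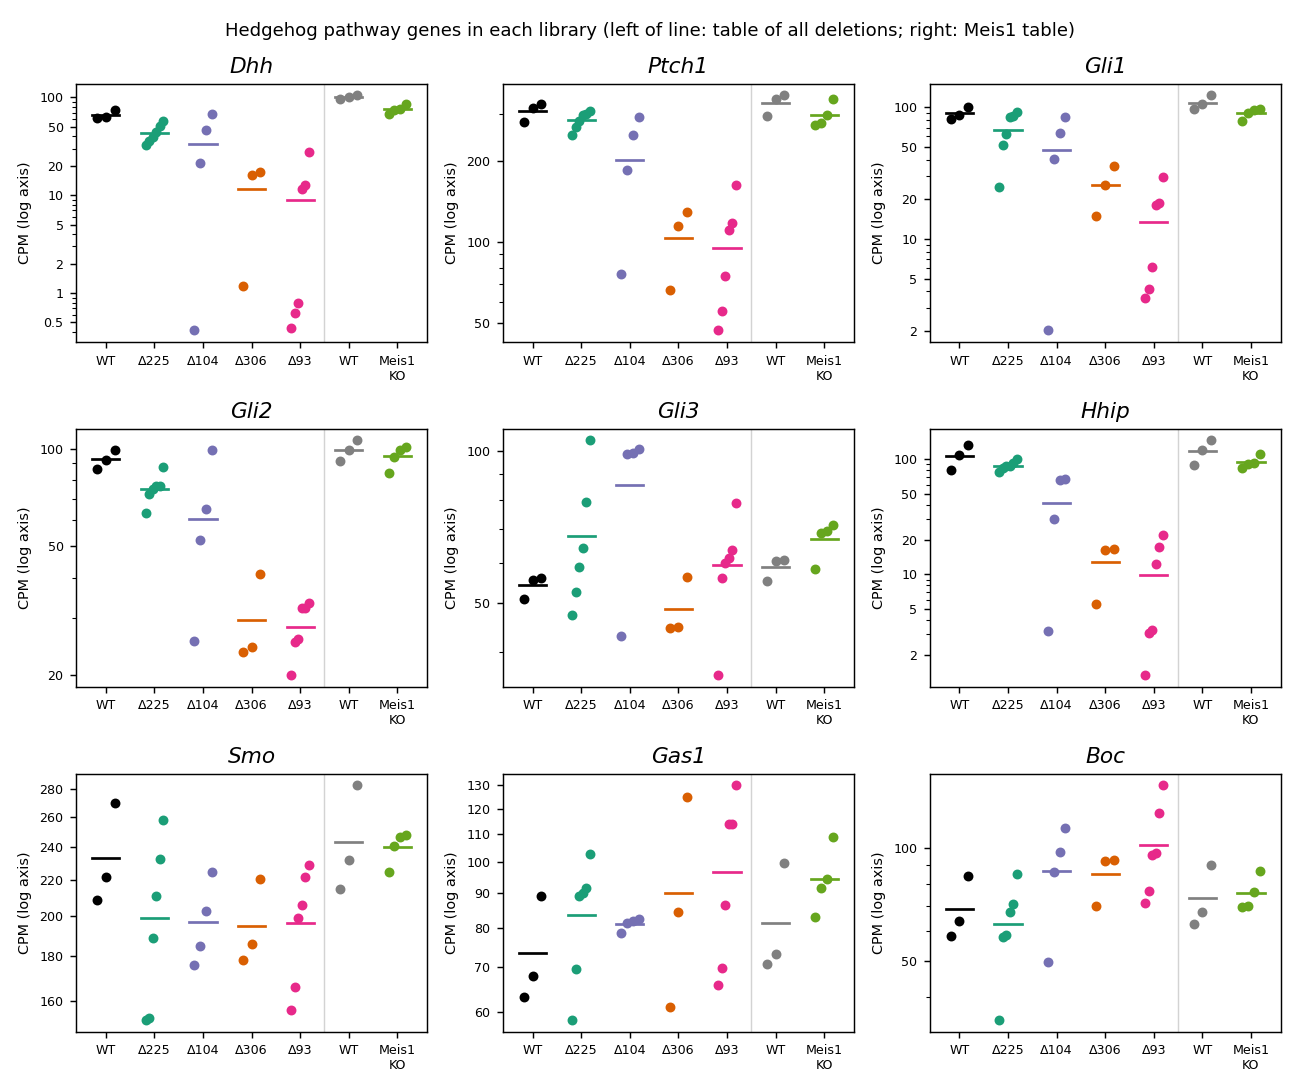
Level of each of the 9 genes in every library, in CPM relative to TMM-scaled library sizes on log axes, by genotype; points are libraries and bars group means. In the Δ93 group 3 libraries of Dhh lie under 1 CPM and 3 between 11.6 and 27.4 CPM, while Smo, Gas1 and Boc overlap WT in every deletion.

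The counts of Dhh depend on the table. On GRCm38 Dhh overlaps Rhebl1 on the same strand over 3389 bases and the antisense gene Gm49442 over 1825 bases. The summed WT counts of Dhh in the table of all deletions were 71.2% of those in the earlier table of WT and Δ306, although the libraries are the same. Gli1, which overlaps the antisense gene Gm47200 over 9584 bases, was at 89.2%, and the other 7 members were between 97.1% and 103%. Rhebl1 was at 101%, as was Ptch1, which has a same-strand overlap of 957 bases with A930032L01Rik. The cause of the difference was not tested. Levels of Dhh and Gli1 are therefore compared only within a table, and how strand was counted is not given in the sources used here.

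The other Hedgehog ligands were much rarer. Per kilobase of exon, WT had 15 ± 1.62 CPM of Dhh, 1.26 ± 0.449 of Shh and 0.0534 ± 0.0115 of Ihh (n = 3). Shh, the Sonic hedgehog gene, had 4.32, 4.33 and 2.11 CPM in WT and 0.247 to 0.595 CPM in Δ306. Its log2 fold change was −2.96 in Δ306 (SE 0.79, adjusted p 0.0286) and −2.60 in Δ93 (SE 0.60, adjusted p 0.00711), and all libraries of both groups lay below WT. In Δ104 (1.78 ± 1.41 CPM, adjusted p 0.44) and Δ225 (3.24 ± 1.31 CPM, adjusted p 0.917) it was not called. Ihh, the Indian hedgehog gene, had 0.163 ± 0.0351 CPM in WT and was called in no comparison.

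Ptch1, Gli1 and Hhip are the 3 members whose RNA reports the received signal. Ptch1, the receptor (ENSMUSG00000021466, chromosome 13, 63508328 to 63573598, minus strand), had 327, 316 and 279 CPM in WT (307 ± 25.4, n = 3). It had 129, 115 and 66.4 CPM in Δ306 and, in Δ93, 47 to 163 CPM with a median of 92.9. Every library of these groups lay below WT, by −1.57 on the log2 scale in Δ306 (SE 0.41, adjusted p 0.0276) and −1.70 in Δ93 (SE 0.33, adjusted p 0.00278). Its lowest library in the table, Δ93 replicate 4, had 47 CPM, and the Δ225 libraries, at 249 to 306 CPM, overlapped WT.

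Gli1 (ENSMUSG00000025407, chromosome 10, 127329882 to 127341974, minus strand), a transcriptional activator made in response to the signal, had 101, 80.9 and 87.2 CPM in WT (89.7 ± 10.4, n = 3). In Δ93 it ran from 3.58 to 29.5 CPM with a median of 12.1 and was called lower (log2 fold change −2.75, SE 0.68, adjusted p 0.0104). In Δ306 it had 35.9, 25.9 and 14.9 CPM, all below WT, but was not called in the fit of all libraries (−1.81, SE 0.84, adjusted p 0.206). With only WT and Δ306 in the fit the same change was called (adjusted p 0.00905). Without the 4 libraries of low Y-linked RNA, Gli1 was not called in Δ93 (−2.42, adjusted p 0.0661).

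Hhip, a membrane protein that binds Hedgehog ligands and sequesters them (ENSMUSG00000064325, chromosome 8, 79965851 to 80058006, minus strand), had the largest log2 fold change of the 9 against WT in Δ306, Δ104 and Δ93. WT libraries had 132, 109 and 81.4 CPM (107 ± 25.1, n = 3), Δ306 libraries 16.7, 16.1 and 5.51 CPM, and Δ93 libraries 1.33 to 21.8 CPM with a median of 7.88. The log2 fold change was −3.07 in Δ306 (SE 0.88, adjusted p 0.0398) and −3.44 in Δ93 (SE 0.69, adjusted p 0.00297). In Δ104 the 4 libraries had 3.22, 30.5, 67.6 and 66.5 CPM, all below WT, but the change of −1.36 was not called (SE 0.75, adjusted p 0.373). The Δ225 libraries had 77.2 to 101 CPM, within the range of WT or just under it.

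The transducers separated. Gli2 (ENSMUSG00000048402, chromosome 1, 118834132 to 119053619, minus strand), the main activator of the pathway, had 99.2, 92.1 and 86.2 CPM in WT (92.5 ± 6.51, n = 3). It had 40.9, 24.4 and 23.6 CPM in Δ306 and 20 to 33.3 CPM in Δ93, with no library of either group near WT. It had the smallest adjusted p of the 9 in both, with a log2 fold change of −1.64 in Δ306 (SE 0.32, adjusted p 0.00685) and −1.72 in Δ93 (SE 0.26, adjusted p 0.000645). Unlike Dhh, it varied little within Δ93, where the highest library was 1.66-fold above the lowest. Gli3 (ENSMUSG00000021318, chromosome 13, 15463235 to 15730026, plus strand), which acts mainly as a repressor without signal, had 54.2 ± 2.81 CPM in WT, 48.6 ± 6.7 in Δ306 and 59.4 ± 13.9 in Δ93. Its log2 fold change of −0.16 in Δ306 (adjusted p 0.811) and 0.13 in Δ93 (adjusted p 0.789) was smaller than its SE. In Δ104, 3 libraries had 98.5, 101 and 99.3 CPM and replicate 4 had 43, and the change of 0.66 was not called (SE 0.29, adjusted p 0.284).

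Smo and the co-receptors were called in no comparison with WT. Smo (ENSMUSG00000001761, chromosome 6, 29735503 to 29761365, plus strand), the membrane protein that passes the signal on, had 270, 222 and 209 CPM in WT. Its means were 195 ± 22.9 CPM in Δ306, 196 ± 29.5 in Δ93, 197 ± 21.9 in Δ104 and 199 ± 42.8 in Δ225, with log2 fold changes between −0.26 and −0.23 and adjusted p-values from 0.34 to 0.496. Gas1 (ENSMUSG00000052957, chromosome 13, 60174405 to 60177365, minus strand), a membrane-anchored co-receptor, had 73.3 ± 13.8 CPM in WT and 96.7 ± 26.4 in Δ93 (log2 fold change 0.40, SE 0.23, adjusted p 0.268). Boc (ENSMUSG00000022687, chromosome 16, 44485049 to 44558897, minus strand), a co-receptor of the immunoglobulin superfamily, had 84.1, 58.3 and 64 CPM in WT and 102 ± 28.8 in Δ93 (0.57, SE 0.27, adjusted p 0.17). Their libraries overlapped WT in all 4 deletions. Per kilobase of exon in WT, Smo had the highest level (41.6 ± 5.76 CPM), then Gas1 (24.8 ± 4.65), Ptch1 (21.7 ± 1.79), Gli1 (18 ± 2.08), Boc (15.5 ± 3.04), Dhh, Gli2, Hhip (11.8 ± 2.77) and Gli3 (5.65 ± 0.293). Neighbours in this order overlapped within 1 SD, except that Smo stood above Gas1 and Gli3 below Hhip. In the Meis1 table, Dhh had 22.8 ± 1.02 CPM per kilobase in the same WT libraries. Gli1 had 21.7 ± 2.76 there and Boc 16.5 ± 3.26, so the rank of Dhh depends on the table.

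Counted over the 9 members, Δ93 against WT had 4 called lower (Ptch1, Gli1, Gli2 and Hhip) and 0 higher, where 14.1% of all 22941 genes tested were called. Δ306 against WT had 3 called lower (Ptch1, Gli2 and Hhip) and 0 higher, against 6.43% of all genes. The median log2 fold change of the 9 was −1.70 in Δ93 and −1.57 in Δ306, against 0.06 and 0.08 over all genes. In Δ225 against WT edgeR called 0 of the 9, where it called 0.209% of all genes, and DESeq2 called 0 of the 9. At an unadjusted p under 0.05 were 0 members there, beside 3687 of the 22941 genes tested. In Δ104 edgeR called 0, against 0.061% of all genes, and DESeq2 called 0 of the 9. At an unadjusted p under 0.05 were 2 members (Gli2 and Gli3), beside 3610 of the 22941 genes tested. The Δ306 count rested on single libraries: without Δ306 replicate 2, Δ306 replicate 3, WT replicate 1 or WT replicate 2, Gli2 alone was called, and Hhip was called in none of the 6 fits that left out 1 Δ306 or WT library. Without the 4 libraries of low Y-linked RNA, which leaves Δ306 with 2 libraries, 0 of the 9 were called in Δ306 and 3 in Δ93 (Ptch1, Gli2 and Hhip). The log2 fold changes in Δ306 were then −1.38 for Ptch1, −1.54 for Gli2 and −2.76 for Hhip (adjusted p 0.0987, 0.0687 and 0.127), near those with all libraries.

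**Figure D2:**
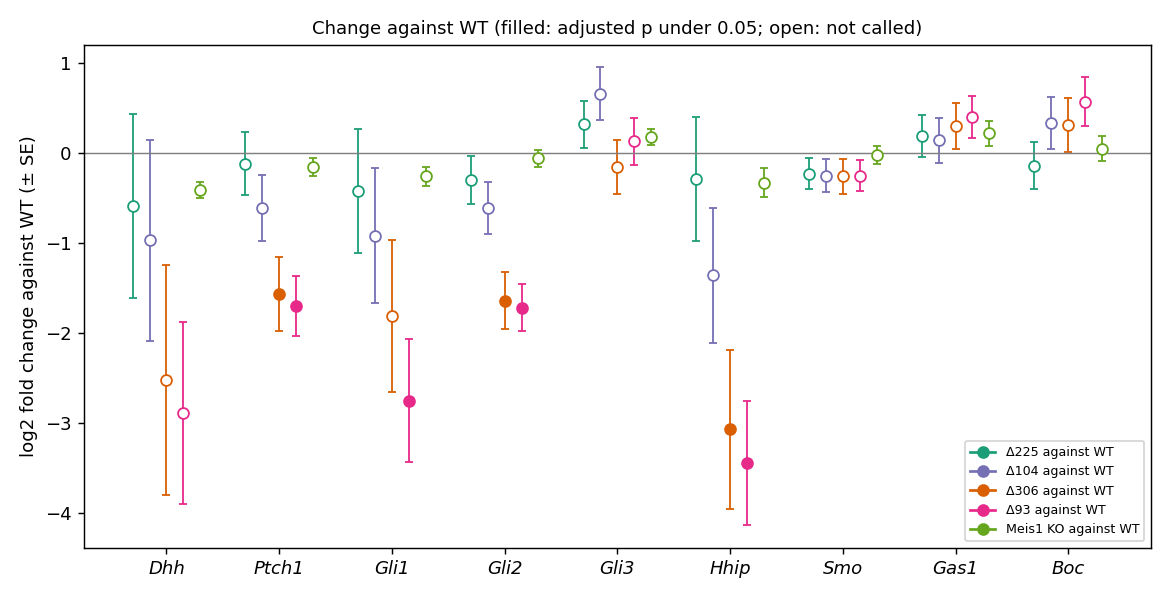
Log2 fold change against WT with its SE for each of the 9 genes in the 4 deletions (3 WT libraries against 3 to 6) and in Meis1 KO (a separate table); filled points passed an adjusted p of 0.05. Ptch1, Gli2 and Hhip are filled in Δ306 and Δ93, Gli1 in Δ93 only, and the Δ225 points lie between −0.59 and 0.32.

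The deletions were also set against each other, which tests whether they differed. In Δ225 against Δ93, 5 of the 9 were called, where 20.8% of all genes were. Ptch1 (283 ± 21.5 against 94.8 ± 44 CPM), Gli1 (66.8 ± 25.7 against 13.3 ± 10.4), Gli2 (75.3 ± 7.79 against 28.2 ± 5.27) and Hhip (88 ± 8.06 against 9.88 ± 8.56) were higher in Δ225. Their log2 fold changes were 1.58, 2.33, 1.42 and 3.16, with adjusted p-values of 0.00072, 0.00941, 0.000204 and 0.00125. Boc was lower in Δ225 (62.6 ± 16.9 against 102 ± 28.8 CPM, log2 fold change −0.70, SE 0.22, adjusted p 0.0256), with overlapping libraries. That call was lost without Δ225 replicate 1, Δ93 replicate 2 or Δ93 replicate 5 (adjusted p 0.0625, 0.0736 and 0.0606). Dhh was not called between the same groups (43.7 ± 9.65 against 8.94 ± 10.7 CPM, 2.29, SE 0.90, adjusted p 0.0745), although their libraries did not overlap. DESeq2 put it past the threshold (adjusted p 0.0443), as did edgeR without Δ93 replicate 6 (adjusted p 0.0278).

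In Δ225 against Δ306, Ptch1, Gli2 and Hhip were called higher in Δ225, 3 of the 9, where 13.2% of all genes were called. Their log2 fold changes were 1.45, 1.35 and 2.79, with adjusted p-values of 0.0142, 0.00489 and 0.0277. Without Δ306 replicate 3 Gli2 alone was called, and Hhip was also lost without Δ306 replicate 1 or 2. Without the 4 libraries of low Y-linked RNA, 0 were called in Δ225 against Δ306 and 3 in Δ225 against Δ93 (Ptch1, Gli2 and Hhip). In Δ225 against Δ306 the log2 fold changes were then 1.22 for Ptch1, 1.17 for Gli2 and 2.46 for Hhip (adjusted p 0.0857, 0.0819 and 0.113). In comparisons with Δ93 and Δ306, the calls for Δ104 depended on the tool and the libraries. In Δ225 against Δ104 0 of the 9 were called (0.645% of all genes), and 0 by DESeq2. At an unadjusted p under 0.05 were 0 members (2423 of all 22941 genes). In Δ93 against Δ104 0 were called (0.0523% of all genes), with 5 at an unadjusted p under 0.05 (3326 of all 22941 genes). DESeq2 called 3 (Ptch1, Gli2 and Hhip). Without Δ104 replicate 1, the Δ104 library with the least Dhh, edgeR called 4 in that comparison (Ptch1, Gli1, Gli2 and Hhip), and without Δ93 replicate 1 it called Gli2. In Δ104 against Δ306 0 were called (0.0654% of all genes), with 4 at an unadjusted p under 0.05 (2547 of all 22941 genes). DESeq2 called 1 (Gli2), which edgeR also called without Δ104 replicate 1. In Δ93 against Δ306 0 were called (0.0785% of all genes), with 0 at an unadjusted p under 0.05 (2065 of all 22941 genes). DESeq2 called 0 in Δ93 against Δ306, and the log2 fold changes lay between −0.94 and 0.29.

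Library by library, little Dhh went with little Gli1 and Hhip. The 5 libraries under 2 CPM of Dhh were Δ104 replicate 1, Δ306 replicate 3 and Δ93 replicates 2, 4 and 5, with 15 to 33 Dhh counts each. The Δ104 library had 2.03 CPM of Gli1 and 3.22 of Hhip, and the Δ306 library 14.9 and 5.51. The 3 Δ93 libraries had 3.58, 6.13 and 4.16 CPM of Gli1 and 3.1, 1.33 and 3.31 of Hhip. The other Δ93 libraries, with 11.6, 12.7 and 27.4 CPM of Dhh, had 18.7, 18.1 and 29.5 CPM of Gli1 and 12.4, 17.3 and 21.8 of Hhip. At the upper end, Δ104 replicate 4 had 67.2 CPM of Dhh and 83.7 of Gli1, inside the range of WT for both. In the 5 libraries Ptch1 had 47 to 76.2 CPM and Smo 166 to 229 CPM. The ratio of Gli1 to Dhh was 1.09 to 1.61 in WT and up to 12.8 in Δ306 replicate 3, where Dhh had 33 counts. Of the 5, Δ306 replicate 3 and Δ93 replicates 4 and 5 also had Y-linked sums under 1 CPM, whereas Δ104 replicate 1 had 5.16 and Δ93 replicate 2 had 3.96. Δ225 replicate 4 had a Y-linked sum of 0.199 CPM and 51.2 CPM of Dhh. What part the low Y-linked RNA has in these levels was not tested.

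**Figure D3:**
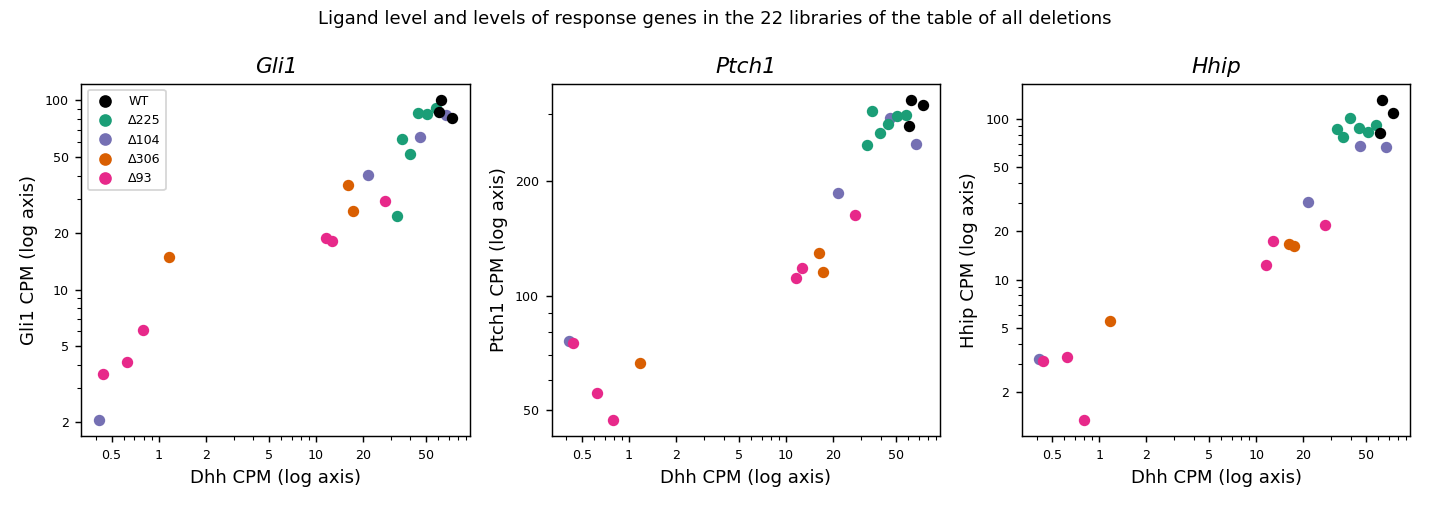
Level of Dhh against the levels of Gli1, Ptch1 and Hhip in the 22 libraries of the table of all deletions, in CPM on log axes, coloured by genotype. The 5 libraries with under 2 CPM of Dhh have 2.03 to 14.9 CPM of Gli1. Genotypes differ in level and partly overlap, so no correlation over all libraries is tested.

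A relation within a genotype was examined in Δ225. In Δ93 the 6 libraries fell into 2 clusters of 3, separated by a 14.6-fold gap from 0.796 to 11.6 CPM of Dhh, so no correlation over these 6 is given. In the 6 Δ225 libraries the log2 level of Dhh and that of Gli1 had a Pearson r of 0.82 (two-sided exact permutation p 0.0333, adjusted over 3 relations 0.1) and a Spearman rho of 0.89 (exact p 0.0333, adjusted 0.1). Without the 2 libraries farthest from the median of Dhh, replicates 1 and 5, r was 0.76. Without replicate 2 it was 0.92, with an adjusted p of 0.025. Leaving out any other single library gave adjusted p-values from 0.05 to 0.4 for Gli1. For Ptch1 r was 0.56 (exact p 0.26, adjusted 0.39) and rho 0.43 (exact p 0.419, adjusted 0.564), and r was −0.04 without the same 2 libraries, so it rested on them. Without replicate 2 it was 0.98, with an adjusted p of 0.025. Leaving out any other single library gave adjusted p-values from 0.342 to 0.783 for Ptch1. For Hhip r was 0.22 (exact p 0.681, adjusted 0.681) and rho 0.31 (exact p 0.564, adjusted 0.564), and r without the 2 libraries was 0.06. The smallest p that 6 libraries allow is 0.00278. Depth splits these libraries too: Gli1 had 24.6, 62.6 and 51.9 CPM in the 3 shallower ones and 84.7, 91.4 and 85.7 in the 3 deeper ones. With 3 libraries on each side, no relation within a depth class could be tested.

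Over all 22 libraries the genes most like Dhh in log2 CPM were Kcns2 (Pearson r 0.99), Ptgds (0.988), Cst9 (0.988), Gdnf (0.986) and Map3k21 (0.984), among 16110 genes with a mean of at least 1 CPM. Ptgds, Cst9 and Gdnf are markers of fetal Sertoli cells. The genes most like Gli1 were Smoc2 (0.979), Amh (0.977), Ptgds (0.975), Padi2 (0.97) and Map3k21 (0.969). Among the members, r with Dhh was 0.955 for Gli1, 0.949 for Hhip, 0.931 for Ptch1 and 0.835 for Gli2. It was 0.019 for Gli3, 0.194 for Smo, −0.477 for Gas1 and −0.694 for Boc. These values describe the libraries, which share genotype, depth and tissue make-up, and carry no test.

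Markers of the cells that send and receive the signal moved in the same groups. The counts of markers called stand beside 6.43% of all genes called in Δ306 and 14.1% in Δ93. Of the 12 Sertoli markers, a list that includes Fgf9, 5 were called lower in Δ306 and 8 in Δ93, and 0 higher in either. Their sum was 243 to 715 CPM in Δ306, 248 to 1200 in Δ93, 141 to 2620 in Δ104 and 996 to 3120 in Δ225. In the 5 libraries with under 2 CPM of Dhh it was 141, 243, 248, 308 and 295 CPM. Of 8 interstitial progenitor markers, 5 were lower in Δ306 and 7 in Δ93, with sums of 656 to 1080 and 716 to 839 CPM. Pdgfra, a receptor of interstitial cells, had a log2 fold change of −1.41 in Δ306 (adjusted p 0.00532) and −1.17 in Δ93 (adjusted p 0.00163). Of 8 tested fetal Leydig markers, 4 were lower in Δ306 and 7 in Δ93, with sums of 67.7 to 124 and 78.4 to 357 CPM. Star, which brings cholesterol to the steroid enzymes, was lower by −4.24 (adjusted p 0.00588) and −3.42 (adjusted p 0.00121). The fetal Leydig sum did not follow Dhh in every group. In Δ225, where all libraries had less Dhh than WT, it was 495 CPM in replicate 3 and 2150 to 3290 CPM in the others. The WT range was 1000 to 1720 CPM, and Δ104 had 56.3 to 1810 CPM. Of 8 pre-granulosa markers, 6 were higher in Δ306 and 8 in Δ93. Foxl2, the defining transcription factor of these ovarian cells, rose from 0.746 ± 0.101 CPM in WT (n = 3) to 55.7 ± 26.3 (n = 3) and 97 ± 44.5 (n = 6). In Δ104 it was at 32.9 ± 33.7 CPM (n = 4) and was not called by edgeR (adjusted p 0.0621). The authors' deposited DESeq2 comparison of WT and Δ104 lists Foxl2 with an adjusted p of 9.39e-06. The pre-granulosa sum was 910 CPM in Δ104 replicate 1, which had the least Dhh, and 87.3 CPM in replicate 4, which had the most. Endothelial markers were called lower in 1 and 2 of 8 and pericyte markers in 3 and 4 of 8, in Δ306 and Δ93. Of 8 mesonephric markers, 0 were called in Δ306, and in Δ93 Pax8 was higher and Wnt9b lower. The endothelial and mesonephric counts are not far from the share over all genes, so they are no result about those 2 lists. Of 5 coelomic epithelium markers, 0 and 2 were called higher, and edgeR called 0 of 6 germ cell and 0 of 6 macrophage markers in either group. The germ cell sum was 18.2 CPM in WT replicate 1 but 492 and 733 CPM in WT replicates 2 and 3. This spread within WT limits what the germ cell test could call. In Δ225 and in Δ104, edgeR called 0 markers of these lists against WT. In whole gonads, fewer cells of a type and less RNA per cell cannot be told apart, and the part of cell composition in the levels of the 9 genes was not tested.

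**Figure D4:**
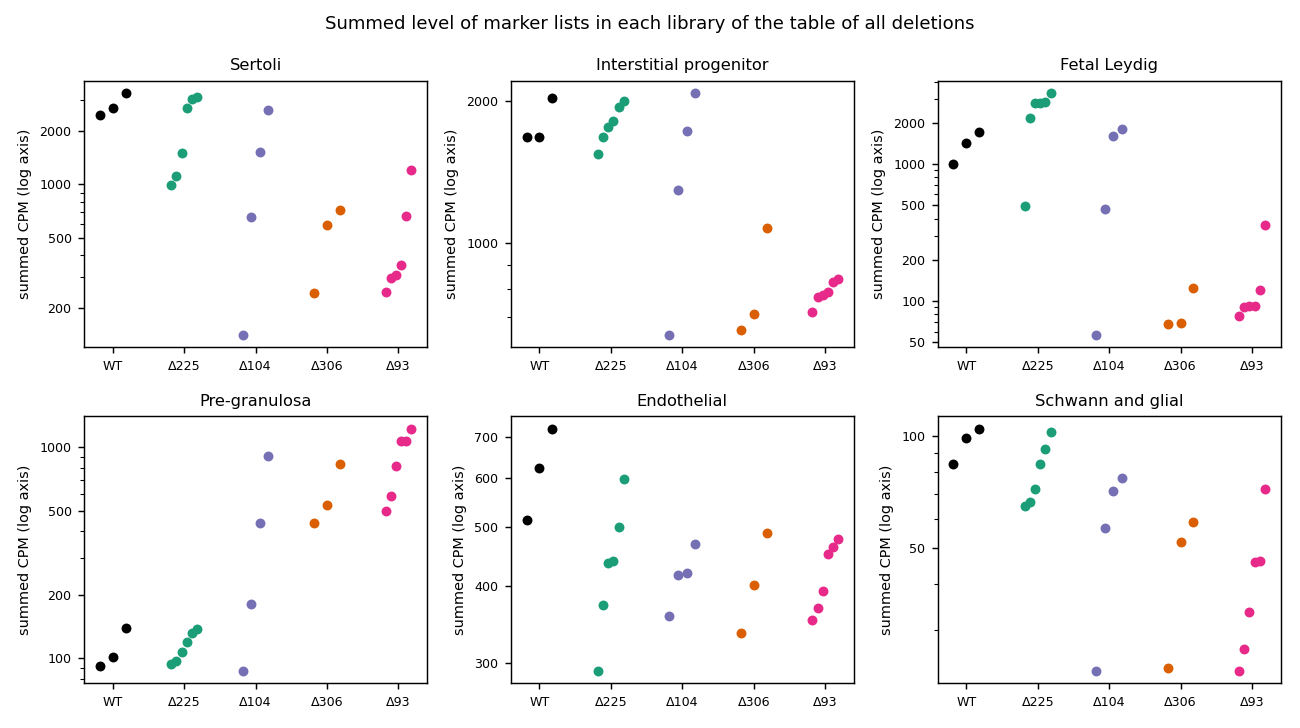
Summed CPM (log axes) of 6 marker lists in each library of the table of all deletions, by genotype; points are libraries. The Sertoli, interstitial progenitor and fetal Leydig sums of Δ306 and Δ93 lie below WT and the pre-granulosa sums above it.

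The other genes of the pathway were taken from 5 lists, whose counts stand beside 6.43% of all genes called in Δ306 and 14.1% in Δ93. Of 8 genes for ligands and their release, 2 were lower in Δ306 (Shh and Hhat) and 0 higher, and in Δ93 3 were lower (Shh, Hhat and Scube1) and 1 higher (Scube2). Hhat, the enzyme that attaches palmitate to Hedgehog ligands, had 16.6 ± 3.38 CPM in WT (n = 3), 8.54 ± 0.672 in Δ306 (n = 3, log2 fold change −0.96, adjusted p 0.0289) and 9.89 ± 1.6 in Δ93 (n = 6, −0.74, adjusted p 0.0233). Its libraries did not overlap WT in either group. Scube1 and Scube2 encode secreted proteins of the family that helps release the ligand. Scube1 had 132 ± 25.8 CPM in WT and 70.8 ± 15.3 in Δ93 (−0.90, adjusted p 0.0201), and Scube2 rose from 2.26 ± 0.426 to 4.97 ± 1.55 CPM (1.14, adjusted p 0.0307). Of 9 co-receptors, decoys and receptors, Gpc3 was lower in Δ306, and Gpc3 and Gpc6 in Δ93. Gpc3, a glypican that competes with Ptch1 for the ligand, had 896 ± 18.9 CPM in WT, 380 ± 130 in Δ306 (−1.24, adjusted p 0.0229) and 371 ± 69.9 in Δ93 (−1.27, adjusted p 0.00309). Gpc6, another glypican, had 53.3 ± 15.1 CPM in WT and 21.8 ± 6.36 in Δ93 (−1.29, adjusted p 0.0081).

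Genes that act inside the receiving cell were also listed. Of 17 signal relay genes 0 were called in Δ306, and in Δ93 Btrc, which recognises Gli proteins for ubiquitination, was higher (48.4 ± 0.643 to 64.3 ± 6.59 CPM, log2 fold change 0.41, adjusted p 0.0415). Of 11 tested cilium genes 0 were called in Δ306, and Rpgrip1l and Bbs4 were higher in Δ93 (0.86 and 0.46, adjusted p 0.0205 and 0.0361). Of 10 tested Hedgehog-responsive genes 0 were called in Δ306, and Foxl1 and Sfrp1 were lower in Δ93. Foxl1, a mesenchymal forkhead factor, had 1.87 ± 0.943 CPM in WT and 0.37 ± 0.124 in Δ93 (−2.32, adjusted p 0.0395). Sfrp1, a secreted Wnt antagonist, had 284 ± 40.4 CPM in WT and 177 ± 34.8 in Δ93 (−0.68, adjusted p 0.0301). Nkx2-2, Nkx6-1 and Olig2, targets known from the neural tube, were too low to test. In Δ225 and in Δ104, edgeR called 0 genes of the 5 lists against WT. The median log2 fold changes of the 5 lists lay between −0.30 and 0.36 in Δ306 and between −0.04 and 0.47 in Δ93. In Δ93 the 2 of 9 co-receptors, decoys and receptors, 1 of 17 relay, 2 of 11 cilium and 2 of 10 responsive genes called are not far from the share over all genes, so these counts are no result about the lists.

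**Figure D5:**
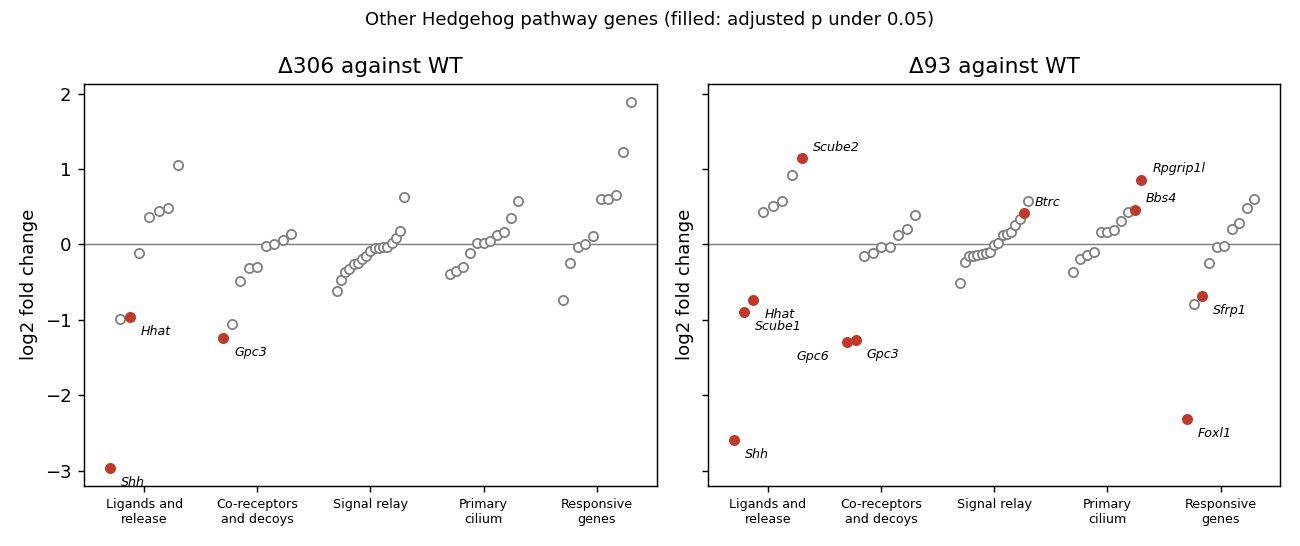
Log2 fold change of the other pathway genes against WT in Δ306 and Δ93 by list, with genes in order of their change within a list; filled and named points passed an adjusted p of 0.05. Shh is the lowest point in both panels, and most relay and cilium genes lie near 0.

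In Meis1 KO, which removes a homeobox factor and not Fgf9, edgeR called 0 of the 9 members. Of the 16791 genes tested there, 1.8% were called. At an unadjusted p under 0.05 were 2 members (Dhh and Gli1) and 3239 of the genes tested. That count of members is not far from the share over all genes, so it is no result about them. Dhh had 100, 105 and 96.1 CPM in WT (100 ± 4.51, n = 3) and 74.2, 67.1, 76.1 and 85.6 CPM in Meis1 KO (75.8 ± 7.65, n = 4). All 4 lay below WT, and the log2 fold change was −0.41 (SE 0.09, adjusted p 0.0638). DESeq2 called it (adjusted p 0.00187), as did edgeR without WT replicate 1 (adjusted p 0.0272), when Gas1 was also called (0.40, adjusted p 0.0389). Gli1 had 108 ± 13.8 CPM in WT and 90.4 ± 7.95 in Meis1 KO (−0.26, SE 0.11, adjusted p 0.225), with overlapping libraries. Hhip had 119 ± 28.6 and 94.4 ± 11.4 CPM (−0.33, SE 0.16, adjusted p 0.312). Ptch1, Gli2, Gli3, Smo and Boc had log2 fold changes between −0.15 and 0.18. Of the other pathway genes, Scube1 was lower (142 ± 28 to 79.2 ± 10.4 CPM, −0.84, adjusted p 0.0408). Among the markers, 1 of 12 Sertoli genes was lower (Mro, 74 ± 11.8 to 47.7 ± 2.78 CPM, adjusted p 0.0392) and 1 of 8 pre-granulosa genes higher (Foxl2, 0.821 ± 0.138 to 6.16 ± 0.581 CPM, adjusted p 0.000753). Sox10 was lower (40 ± 3.77 to 25.3 ± 2.75 CPM, adjusted p 0.0369). The fetal Leydig sum was 1080 to 1870 CPM in WT and 1600 to 2530 in Meis1 KO. The Sertoli sum was 2650 to 3500 CPM in WT and 2020 to 2670 in Meis1 KO, and its part in the level of Dhh was not tested.

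The authors' deposited table gives the same comparisons of deletions by DESeq2. With an adjusted p under 0.05 it lists 5 of the 9 members for WT and Δ93 (Dhh, Ptch1, Gli1, Gli2 and Hhip) and 3 for WT and Δ306 (Ptch1, Gli2 and Hhip). The authors' deposited table lists 6 for Δ225 and Δ93 (Dhh, Ptch1, Gli1, Gli2, Hhip and Boc) and 3 for Δ225 and Δ306 (Ptch1, Gli2 and Hhip). It lists 3 for Δ93 and Δ104 (Ptch1, Gli2 and Hhip) and 1 for Δ306 and Δ104 (Gli2), which edgeR did not call in the fit of all libraries. It lists 0 for each of the other 4 comparisons. Over all genes with an adjusted p, the authors' deposited table has 17.9% under 0.05 for WT and Δ93, 10.4% for WT and Δ306, 21.3% for Δ225 and Δ93 and 16.2% for Δ225 and Δ306. For Δ93 and Δ104 the share is 2.83%, and for Δ306 and Δ104 1.87%.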

How the data were processed

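RNA-seq libraries of E13.5 XY mouse gonads were used as gene counts deposited by the authors, in a table of WT and Δ306, one of WT and all deletions, and one of WT and Meis1 KO. Raw counts were used as deposited. STAR 2.7.10a, featureCounts (Subread) and DESeq2 are named for WT and Δ306, STAR and DESeq2 for the later samples, and mm10 for both, per the submitters' processing notes. Annotation and strand setting are not given in the sources used here. The deposited table of comparisons gives log2 fold changes and adjusted p-values, per the file headers, and served for gene names and for the counts credited to it.

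Genes were kept with filterByExpr, scaled with TMM and tested with edgeR 4.0.16 (R 4.3.3, limma 3.58.1) by the quasi-likelihood F-test, two-sided, with Benjamini-Hochberg adjustment over all genes tested and a threshold of 0.05. The 22 libraries of the deletion table made 1 fit (17 residual degrees of freedom) and the 7 of the Meis1 table another (5), since the tables were counted apart. The fitting steps were also run on simulated counts, for Δ93 and Meis1 KO against WT only, and the outcome is not reported here. CPM used TMM-scaled library sizes, and correlations used log2 CPM with a prior count of 2. Per-kilobase values use exon lengths of GENCODE M21. Exact permutation tests and motif searches used Python 3.11.15 with scipy 1.17.1. Relations of Dhh to 3 response genes were planned in Δ225 and Δ93, and those in Δ93 are not given because its libraries form separate clusters. Alternatives were RLE or no composition scaling, other filters, DESeq2 1.42.0, a threshold of 0.01, a replicate block, only the groups compared, each library left out and, chosen after seeing the data, no libraries with Y-linked sums under 1 CPM. The named genes are the 9 members, the pathway genes called against WT, defining markers, and the 5 genes most like Dhh and Gli1. The members and lists were chosen with earlier results of these data known.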

Additional observations from a re-analysis of the deposited data

Results flagged for a closer look

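Gli3 in Δ104 stood out for 1 library. Replicate 4 had 43 CPM, whereas the other 3 Δ104 libraries had 98.5 to 101 CPM, and the gap was beyond Dixon's 95% critical value for 4 samples. This was 1 of 36 such tests over the 9 genes, and chance flags about 1 in 20 groups. WT libraries had 50.9 to 56.1 CPM. The same library had the most Dhh (67.2 CPM), the highest Sertoli marker sum (2620 CPM) and the lowest pre-granulosa sum (87.3 CPM) of the 4.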

How the results depend on the processing

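The 15 member values called by edgeR kept their direction in all 279 alternatives run and stayed past the threshold in 245, and 34 no longer passed it. The 51 values not called that were followed stayed so in 830 of 856 alternatives, 18 passed the threshold and 8 changed sign. At an adjusted p under 0.01, 1 member was called in Δ306 against WT and 1 in Δ225 against Δ306. Leaving out 1 library gave 1 to 2 members in Δ306 against WT, 1 to 3 in Δ225 against Δ306, 0 to 4 in Δ93 against Δ104, 0 to 1 in Δ104 against Δ306 and 0 to 2 in Meis1 KO. Without the libraries of low Y-linked RNA the count was 0 in Δ306 against WT, 3 in Δ225 against Δ93 and 0 in Δ225 against Δ306, with fewer libraries in each. With DESeq2 it was 3 in Δ93 against Δ104, 1 in Δ104 against Δ306 and 1 in Meis1 KO, and with a mean CPM of at least 1 it was 1 in Δ93 against Δ104. The cause was not tested. Without 1 library the log2 fold change ran from −0.04 to 0.48 for Gas1 in Δ306, −0.26 to 0.04 for Boc in Δ225, −0.04 to 0.96 for Dhh in Δ225 against Δ104, −0.11 to 0.11 for Smo and −0.07 to 0.22 for Boc in Meis1 KO. For the relation of Dhh in Δ225, r ran from 0.80 to 0.92 for Gli1, 0.18 to 0.98 for Ptch1 and −0.10 to 0.56 for Hhip, and for Gli1 it was 0.88 without a composition factor (adjusted p 0.0292). Without that factor the share of higher calls over all genes moved from 46.1% to 61.8% in Δ306 against WT and from 49% to 34.2% in Δ225 against Δ306. The same replicate number did not pair libraries: 9 of 35 same-number pairs of the deletion table correlated above 0.1 (median 0.02), and 2 of 3 in the Meis1 table. A replicate block gave 2 members in Δ306 against WT (Hhip −3.03, adjusted p 0.065), 4 in Δ93 against WT, 5 in Δ225 against Δ93 and 3 in Δ225 against Δ306 (Ptch1, Gli2 and Gli3, with Hhip at 2.7, adjusted p 0.0519). The fit of WT and Δ306 alone gave 4 members in Δ306 against WT. Depth limits Dhh most in the 5 libraries with 15 to 33 counts.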

Other observations

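The neighbours of Dhh differ between the deposited tables of the same 3 WT libraries. Gm49442, antisense to Dhh, had 64 summed WT counts in the table of all deletions, 28.4% of those in the earlier table. Dhh had 8627 and 12110, or 71.2%. Rhebl1, which overlaps Dhh on the same strand, was at 101%, as was the median of 14237 genes. The WT counts of the earlier table and of the Meis1 table were identical for 31053 genes.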
